A study of Mus musculus with 2 samples.

Results

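These results describe the mouse transcripts on which a direct RNA sequencing library listed 10 or more N6-methyladenosine (m6A) positions, called dense transcripts here. They were chosen by their number of listed positions with a coverage of 20 or more reads in replicate 2, with 1 transcript per gene, the one with the most sites. The rule gave 171 transcripts with 1980 sites, out of 16212 such sites on 4510 transcripts in that library. Of the 3919 named genes with a site, 171 passed, which is 4.36%. A site is a listed position with 20 or more reads. For comparison, 2190 genes had 1 to 3 sites on their best transcript, with 4218 sites in all, and are called sparse transcripts. Site number, coverage and the distance between sites follow from the rule and are given as a description. The fraction modified at each site, and all values of replicate 1, did not enter the choice.

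The samples were 2 libraries of poly(A) RNA from retinal organoids at day 6, tissue aggregates grown from a mouse stem cell line. Both were wild type, made from the same Rx:GFP line, in which green fluorescent protein reports the eye-field gene Rx, and both were cultured with AGN at 0.1 µM for 6 days. The 2 libraries form 1 group with no mutant or untreated control among them, and nothing in the labels says whether they came from separate differentiations. Each used 1 µg of RNA and was run for about 48 h. The study's subject is METTL3 and m6A in retinal development.

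m6A is the most abundant internal modification of messenger RNA. METTL3 is the catalytic subunit of the enzyme complex that writes it, and YTH-domain proteins such as YTHDF2 bind the methylated base and act on the stability and translation of the message. In mammalian messages the mark lies in a short sequence context and gathers in long internal exons and near the stop codon. In neural progenitors it is known for its part in the turnover of transcripts during differentiation.

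All listed positions lie on 1 of 4 sequences of 5 bases, which are printed here because the level at a site depends on them and they carry the modified A at the third base. Motif 1 is GGACA, with 662 of the 1980 dense sites. Motif 2 is GGACT, with 511 sites. Motif 3 is GGACC, with 443 sites. Motif 4 is AGACT, with 364 sites. They are written in DNA letters, as deposited. A position was read as a 1-based count along the spliced transcript, and the base that it marks is not stated. For 102 positions within the first 45 bases of a transcript the gene was in a RefSeq table of start sequences, and the motif was found within reach for 26 of them. In 22 of those 26 the listed position fell on the fourth base, which on this count puts the A 1 base before it.

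The tables listed 26441 positions in replicate 1 and 50099 in replicate 2, with a median coverage of 10 and 12 reads. Among 7 markers of the early eye field, 6 had a listed position in each library, with up to 111 reads in replicate 1 and 261 in replicate 2. No marker of pluripotent cells (4 genes), mesoderm (3), endoderm (3) or neural crest (3) had a listed position in either library. Of 4 neuronal markers 1 was listed, Tubb3, with at most 11 and 17 reads. Of 3 pigment epithelium markers, Pmel was listed with 6 and 14 reads and Mitf in replicate 2 alone with 13. A gene without a motif at 5 or more reads is not listed, so these values are no measure of absence.

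Rbm15b carried the most sites, 22. It encodes an RNA-binding partner of the m6A writer complex itself. Adnp, a homeobox protein of chromatin in neural development, carried 20. Igfbp5, a secreted binding protein of insulin-like growth factors, and Fzd8, a Wnt receptor, carried 17 each. Aars (alanyl-tRNA synthetase), Msh6 (DNA mismatch repair), Hdlbp (an RNA-binding protein with many KH domains) and Prpf8 (the core splicing factor of the spliceosome) carried 16 each. Ajuba (a LIM protein of cell junctions and Hippo signalling), Cdh11 (a cadherin), Ipo9 (an importin), Gpat4 (glycerolipid synthesis) and Qrich1 had 15. Ctnnb1 (beta-catenin), Nr2f6 (an orphan nuclear receptor), Sar1a (vesicle budding at the endoplasmic reticulum), Chtf8 (sister chromatid cohesion), Ap2b1 (clathrin adaptor), Prrc2a (an m6A-binding protein) and Zfp41 were 7 of the 13 genes with 14, those with the highest summed coverage. Most dense transcripts stood close to the threshold, with 65 at 10 sites, 40 at 11 and 27 at 12. The dense genes lay on 20 chromosomes.

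Ythdf2, the decay-promoting reader of m6A, also had 14 sites. Some dense genes belong to the same family. These were picked from the dense genes after they were seen, and how many other members had a site was not counted, so they cannot be read against the 4.36% of all genes. They are the G protein alpha subunits Gnai3 (11 sites), Gna12 (11) and Gna11 (10), the nucleoporins Nup62 (13), Nup50 (12) and Nup188 (10), and the importins Ipo9 (15) and Ipo7 (11). Others are the cullin regulators Cand2 (11) and Cand1 (10), the adaptors Crk (13) and Crkl (11), and the Sox factors Sox12 (12) and Sox1 (11). Signalling receptors and modulators of the Wnt, Hedgehog and BMP pathways were Fzd8 (17), Fzd1 (11), Sfrp1 (11), Smo (10) and Bmpr1a (10).

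Gene lists were read against the site counts, where a site count grows with coverage. Of the eye-field and neural progenitor list, 22 genes had a site and 5 were dense, namely Nr2f6, Nr2f1, Nr2e1, Six6 and Id2. The median was 6.5 sites, against 3 over all 3919 genes. Of the list of Wnt, junction and growth factor signalling, 9 had a site and 5 were dense, Igfbp5, Ctnnb1, Cdh2, Smad4 and Dag1, with a median of 11. Translation and tRNA synthetases gave 3 dense genes of 18 (Aars, Eif4g1 and Eif4g2), and transcription and chromatin 2 of 18 (Sall2 and Brd2). Cell cycle and replication gave 1 of 19, the helicase subunit Mcm3. RNA binding gave 1 of 23, Ythdf2. None of the 17 genes of the cytoskeletal list and none of the 16 of the metabolic list with a site was dense. Both lists are short and leave out dense genes of those kinds, such as Kif1a, a motor, and Pgd, Acaca and Gpat4, metabolic enzymes. The share of all genes that were dense was 4.36%.

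Some dense transcripts repeat the same stretch of sequence and their reads cannot be told apart with certainty. All 11 sites of Exosc6, an exosome subunit, matched 11 of the 16 sites of Aars in motif and spacing, 4424 nt further along, and the 2 annotated genes overlap on chromosome 8. Coverage of Aars in replicate 2 was 69 reads at position 3401 and 36 at position 4829, the first of the shared sites, where Exosc6 had 25 at its position 405. Chtf8 and Derpc, also overlapping on chromosome 8, shared 11 sites at an offset of 174 nt. The paralogues Rtl8a and Rtl8b on chromosome X, derived from a retrotransposon Gag gene, shared 11 at an offset of 49 nt. Adnp, Fdx2 and 6820431F20Rik had runs of 8, 5 and 6 listed positions in step with a transcript outside the set. Without Exosc6, Derpc and Rtl8a no difference between classes that was computed again changed direction in either library.

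Replicate 1 was shallower. It listed 1533 of the 1980 dense sites (77.4%), 495 of them with 20 or more reads, on 91 of the transcripts. By the same rule replicate 1 alone had 25 transcripts with 10 or more sites, and 22 of those were among the 171. Those outside the set include Ipo5 and Sf3b3, with 10 sites each in replicate 1 and 8 each in replicate 2. In replicate 2, 597 of the dense sites had fewer than 30 reads and 588 had 50 or more. Summaries for replicate 1 below use its 495 sites, while sites shown one by one can have fewer than 20 reads there.

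In the median and the motif-adjusted mean of the fraction modified, dense and sparse transcripts differed by less than the spread of that difference between the libraries. The median over sites was 0.364 in replicate 1 and 0.348 in replicate 2 on dense transcripts, and 0.379 and 0.333 on sparse ones. Since motifs differ in level, each fraction was also taken relative to the median of its motif over all sites of that library. The mean of this motif-adjusted fraction over transcripts was 0.0289 and 0.0336 for dense and 0.0317 and 0.0203 for sparse transcripts. The difference, dense minus sparse, was -0.00282 in replicate 1 and 0.0133 in replicate 2, 0.00524 ± 0.0114 (SD, n = 2), so its sign changed between libraries (exact paired permutation, two-sided p = 1, with 0.5 the smallest that 2 libraries allow). Sites at 0.9 or more made up 11.3% and 8.69% of dense sites, against 12.3% and 10.4% of sparse sites, a difference of -1.02 and -1.72 percentage points that exceeded its spread between the libraries (-1.37 ± 0.496, SD, n = 2; exact paired permutation, two-sided p = 0.5, the smallest possible). This share is not adjusted for motif, and GGACA, the motif with the highest levels, made up less of the dense sites. The part of the motif mix in this difference was not tested. Sites listed at 0 made up 2.63% and 2.98%, against 1.98% and 3.25%. Transcripts with 9 sites, just outside the rule, had a median fraction of 0.347 over 90 transcripts, and those with 10 sites had 0.364 over 65.

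Motif 1 stood above the other 3 in both classes. On dense transcripts the median at GGACA was 0.665 in replicate 1 and 0.636 in replicate 2, and on sparse transcripts 0.667 and 0.634. At GGACT the dense medians were 0.240 and 0.222 against 0.294 and 0.240, a difference of -0.0541 and -0.0174. At AGACT they were 0.275 and 0.263 against 0.286 and 0.263. GGACC alone had a median higher on dense transcripts in both libraries by nearly the same amount, 0.255 and 0.286 against 0.193 and 0.222. That difference was 0.0629 in replicate 1 and 0.0635 in replicate 2 (exact paired permutation, two-sided p = 0.5, the smallest possible). It was positive in each library and at every alternative coverage limit, site number and choice of transcripts tried, with means from 0.0401 to 0.0972. The motif was looked at after the values were seen, and the interquartile ranges of the 2 classes overlap widely. The share of sites on GGACA was lower on dense transcripts, 33.5% and 33.4% against 40.0% and 36.0%. At sites of 20 to 49 reads the difference, in percentage points, was -5.90 in replicate 1 and 0.0214 in replicate 2, so there it was seen in replicate 1 alone.

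**Figure D1:**
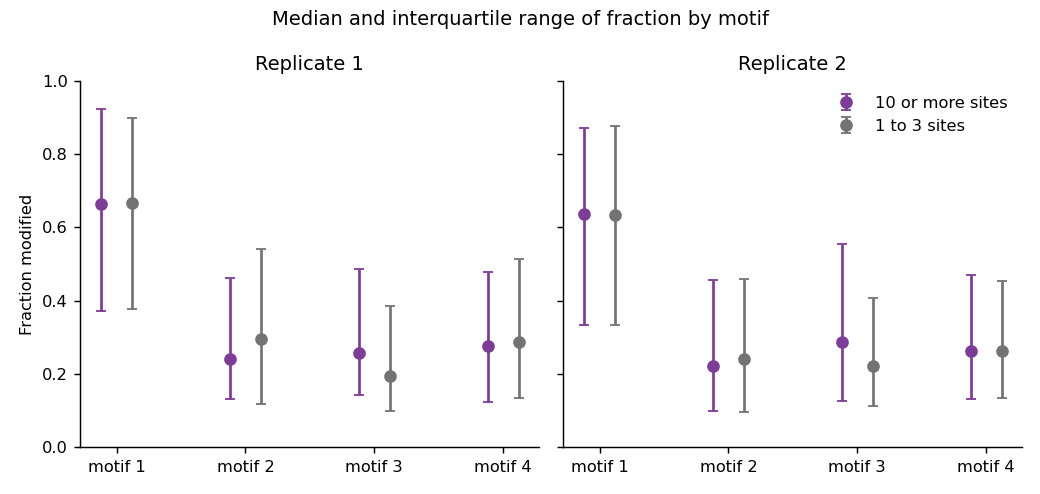
Median (point) and interquartile range (bar) of the fraction modified by motif in each library, for transcripts with 10 or more sites (purple) and 1 to 3 sites (grey). Motif 1 (GGACA) has medians from 0.634 to 0.667, and the other 3 motifs lie below 0.3 in both classes, with motif 3 (GGACC) higher on the dense transcripts by 0.0629 and 0.0635.

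Within 1 transcript the fraction ran nearly from 0 to 1. Over the 171 dense transcripts the range between the lowest and the highest site had a median of 0.879 (lowest 0.494, highest 1) in replicate 2. On 146 transcripts the lowest site was under 0.1, on 111 the highest was over 0.9, and 142 had both a site under 0.2 and a site over 0.8. These counts and the range grow with the number of sites, which the rule sets at 10 or more, so they are a description. Of single sites in replicate 2, 8.69% of dense and 10.4% of sparse ones were at 0.9 or more. A range under 0.6 was found on 6, and 131 transcripts held all 4 motifs. The mean over the sites of a transcript ran from 0.219 for Mcm3 to 0.631 for Eif4g2, with a median of 0.413. A mean over 10 or more sites varies less than single sites do. The sum of the fractions over a transcript, the number of modified sites an average molecule would hold if the fractions were unbiased, had a median of 4.73 and ran from 2.33 to 9.13, the last for Rbm15b.

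**Figure D2:**
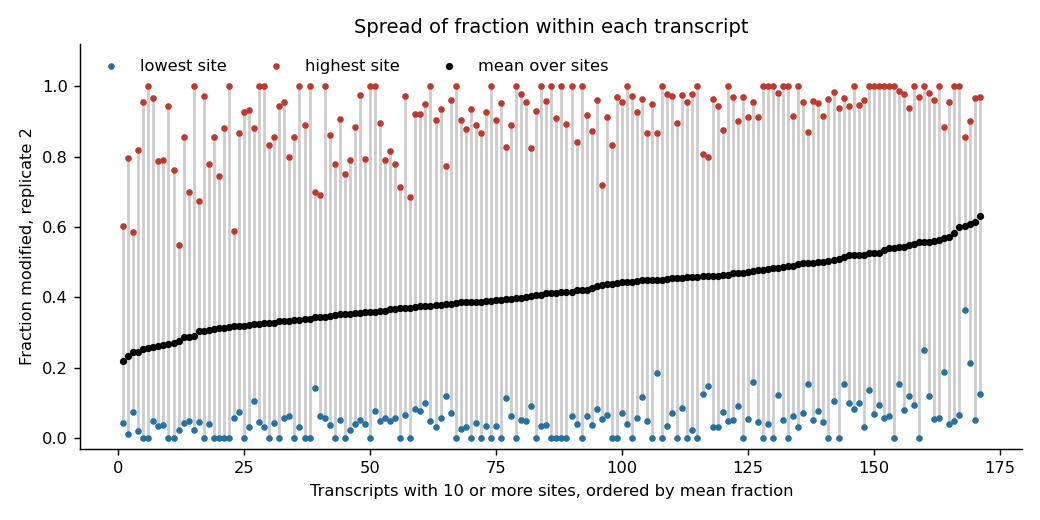
Lowest (blue), mean (black) and highest (red) fraction modified over the sites of each of the 171 dense transcripts in replicate 2, ordered by the mean. The means run from 0.219 to 0.631, while the bar from lowest to highest site covers a median of 0.879.

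The pooled SD of the fraction within a transcript was 0.297 in replicate 1 and 0.298 in replicate 2 for dense and 0.315 and 0.305 for sparse transcripts. The difference was -0.0187 and -0.00723 (exact paired permutation, two-sided p = 0.5, the smallest possible). At a minimum of 10 reads its direction turned, with 0.0125 in replicate 1, -0.00143 in replicate 2 and a mean of 0.00556. These SDs are not adjusted for motif. With motif-adjusted fractions the dense minus sparse difference was -0.00567 in replicate 1 and 0.00162 in replicate 2. Among sites of the same motif it was -0.00627 and 0.00518, so with motif allowed for the sign changed between libraries. Motif accounted for 21.8% and 18.8% of the variance of the fraction over dense sites, and for 41.0% and 24.1% with members chosen again at a minimum of 50 reads. Sites of the same motif on the same dense transcript still had an SD of 0.266 and 0.271, next to 0.269 and 0.269 for sites of the same motif over all dense transcripts. After motif, the transcript accounted for 5.17% of the variance in replicate 1 and -0.503% in replicate 2, an estimate that can fall below 0 when transcripts differ by no more than their sites. At 20 reads, sites of one message were by these values about as unlike each other as sites of different messages. Sparse transcripts gave similar values. Their SD within transcript and motif was 0.272 in replicate 1 and 0.266 in replicate 2. Motif accounted for 22.6% and 20.8% of their variance, and the transcript after motif for 5.17% and 0.614%.

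Sets of at least 6 sites of the same motif on 1 transcript give examples of the spread within a message. There were 55 such sets in replicate 2, and 36 had a range over 0.6. A range grows with the number of sites, and sets drawn across transcripts were not compared. The sets of Rtl8a and Rtl8b, and of Chtf8 and Derpc, include sites that the 2 genes share. Ythdf2 had the largest SD, 0.394, over 9 GGACA sites from 0.0714 to 0.955. Its GGACA sites from position 801 to position 1494 read 0.765, 0.95, 0.955 and 0.875, and those at 1773, 1961 and 2172 read 0.105, 0.1 and 0.0714. Replicate 1, with 14 to 17 reads there, gave 0.692, 0.889, 1 and 1 for the first 4 and 0, 0.111 and 0.125 for the other 3. The remaining GGACA sites, at 648 and 1844, read 0.571 and 0.1 in replicate 1 and 0.2 and 0.304 in replicate 2. From position 801 on, the same motif was thus high in one stretch of the reader's message and low further along, in both libraries.

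Cdh11, a cadherin of mesenchymal cells, had 11 GGACA sites from 0.12 to 0.969. At positions 1433 and 1439 the fraction was 0.969 and 0.211 within 6 nt (37 reads each in replicate 2). Replicate 1 read 1 at position 1433 from 10 reads and did not list 1439, so the contrast rests on replicate 2. Rbm15b had 9 GGACC sites from 0 to 0.885, with an SD of 0.366. Other sets were narrow. The 7 AGACT sites of Adnp lay between 0.027 and 0.263 (SD 0.0897), the 6 GGACA sites of Msh6 between 0.265 and 0.5 (SD 0.0969), and the 7 GGACT sites of Mcm3 between 0.0435 and 0.357 (SD 0.106).

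For 6 transcripts the sites were read one by one, the 3 with the most sites and the 3 with the most sites in the list of eye-field and neural progenitor genes, a short list that leaves out other such genes, Sox1 and Sox12 among them. Positions of genes are given as deposited, on a build that the tables do not name. Rbm15b lies on chromosome 9 (106758117 to 106764627). Its site at position 2099 (GGACT) was at 1 in both libraries, with 11 reads in replicate 1 and 30 in replicate 2. The site at 1364, also GGACT, was at 0 in both, with 6 and 26 reads. Its neighbour 23 nt upstream, position 1341, again GGACT, was at 1 and 0.682. The sites at 2083 and 2104 (both GGACC) read 0.818 and 0.833 in replicate 1 and 0.885 and 0.667 in replicate 2, so 3 high sites lay within 21 nt. The 4 sites between 2386 and 2542 then stood at 0.2 or less in replicate 2. After a gap of 2515 nt the last 2 sites, at 5631 and 6117, read 0.308 and 0.889 there.

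Adnp lies on chromosome 2 (168022906 to 168049032). All of its 20 sites had 24 to 46 reads in replicate 2 and under 20, or no listed value, in replicate 1. Its highest sites were at 724 (GGACC, 0.88) and 4497 (GGACA, 0.857, with 1 in replicate 1 from 17 reads). Its last site, 72 nt after the latter at 4569 (GGACT), was at 0 in both libraries, from 18 and 46 reads. High and low sites thus lay side by side at the end of the listed stretch.

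Igfbp5 lies on chromosome 1 (72897091 to 72914043) and was the most deeply read of the 6, with 28 to 274 reads in replicate 1 and 133 to 788 in replicate 2. All 17 sites could be compared. The means were 0.491 and 0.498. The GGACA sites at 935 and 1784 read 0.909 and 0.933 in replicate 1 and 0.906 and 0.959 in replicate 2. The GGACA sites at 3605 and 3637, 32 nt apart, read 0.129 and 0.573 in replicate 1 and 0.225 and 0.483 in replicate 2. The GGACT sites at 3559 and 3873 stood at 0.667 and 0.748 in replicate 1 and 0.744 and 0.68 in replicate 2, whereas those at 1522 and 5045 stood at 0 and 0.0638, and at 0.0504 and 0.0803. The high sites were high and the low sites low in both libraries.

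Nr2f6 lies on chromosome 8 (71826767 to 71834604), and 13 of its 14 sites had 20 or more reads in replicate 1. Their means were 0.538 and 0.541. Its highest sites in replicate 1 were 519 (GGACC, 0.952 and 0.867), 875 (GGACA, 0.92 and 0.774), 1520 (GGACA, 0.943 and 0.844) and 1882 (GGACA, 0.971 and 0.943). The site at 405, also GGACC and 114 nt from position 519, was at 0.0455 and 0.161. Its neighbour 7 nt before, at 398 (GGACT), was at 0.75 and 0.682.

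Nr2f1, a related nuclear receptor on chromosome 13 (78337092 to 78347876), carried 13 sites, each with at least 37 reads in both libraries. None exceeded 0.6. The highest was the first, at 1448 (GGACA), with 0.579 and 0.55, and the 12 others held no GGACA. The GGACC sites at 2757 and 2785, 28 nt apart, read 0.087 and 0.553 in replicate 1 and 0.0667 and 0.514 in replicate 2. The site at 2696 (GGACC) differed most between libraries, 0.388 against 0.162, from 77 and 168 reads.

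Nr2e1 (Tlx), a nuclear receptor of retinal and neural progenitors on chromosome 10 (42437959 to 42459628), carried 11 sites. Its 3 GGACA sites were its 3 highest, at 0.926 (position 1930), 0.636 (2066) and 0.794 (2645) in replicate 2 and 1, 0.667 and 0.667 in replicate 1 from 13 to 17 reads. Its 6 AGACT sites lay between 0.087 and 0.375, and its GGACT site at 2024 was at 0 in both libraries from 15 and 36 reads. In Nr2e1, unlike in Nr2f6 or Ythdf2, the order of the sites followed the motif.

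**Figure D3:**
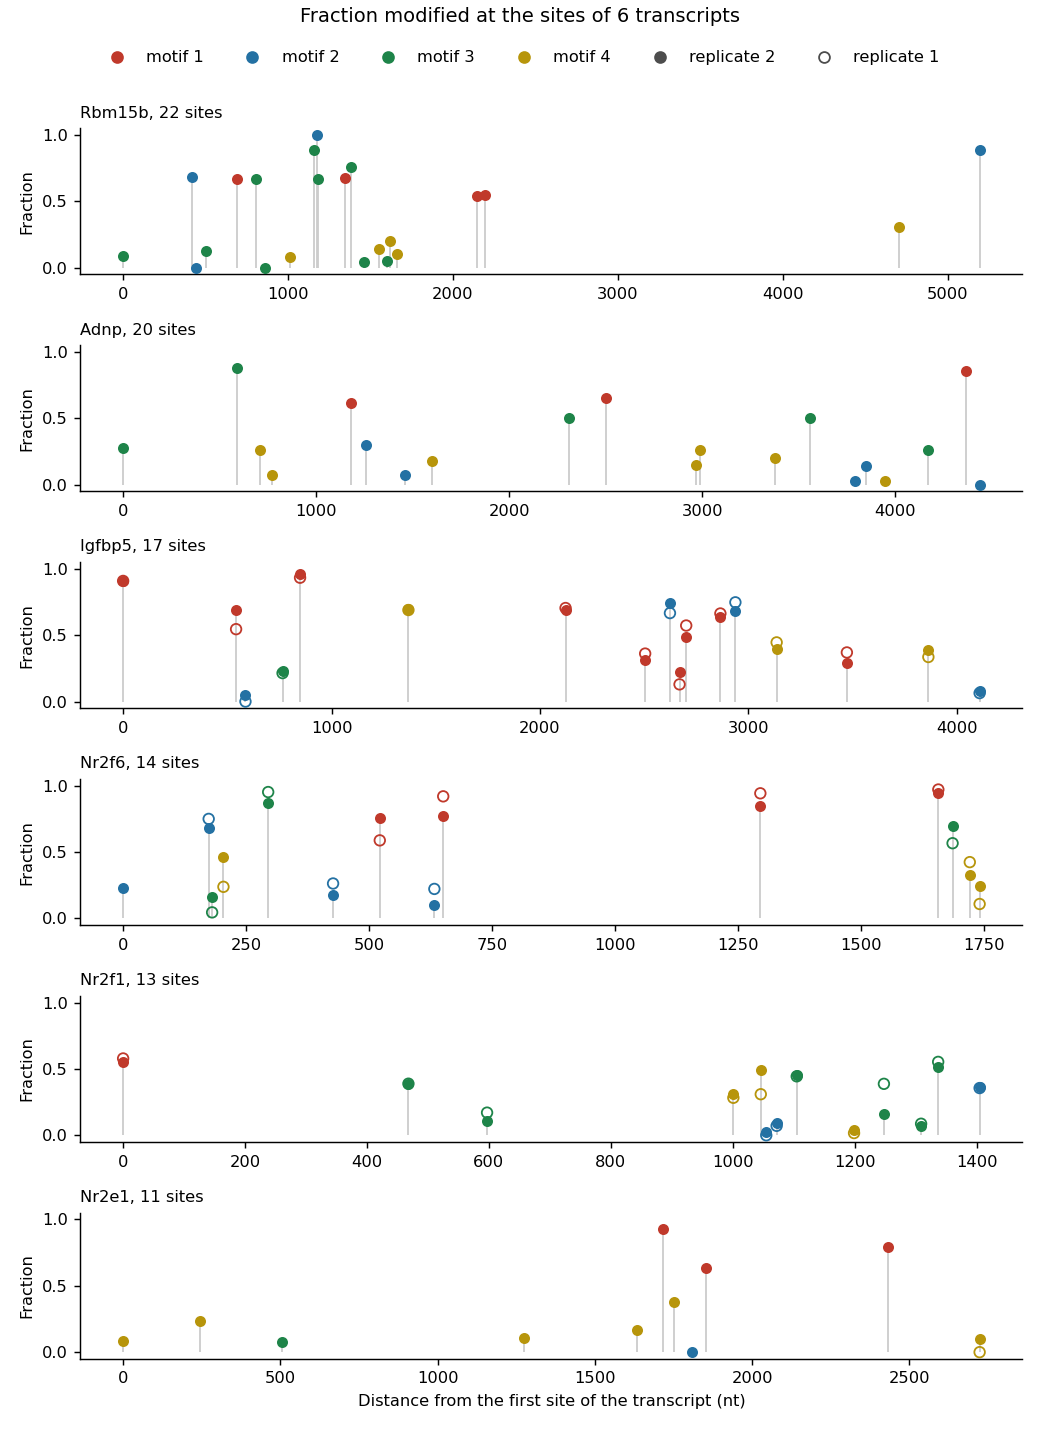
Fraction modified (vertical axis, 0 to 1) at each site of 6 transcripts against the distance from the first site in nt. Filled points are replicate 2, open points replicate 1 where it had 20 or more reads, and colours give motif 1 (GGACA), motif 2 (GGACT), motif 3 (GGACC) and motif 4 (AGACT). In Igfbp5, Nr2f6 and Nr2f1 open and filled points lie close together while neighbouring sites differ, as at the GGACA pair of Igfbp5 at 0.225 and 0.483.

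Sites of dense transcripts were closely spaced, as the rule favours. The median distance between successive sites was 115 nt in replicate 1 and 144 nt in replicate 2, against 233 and 271.5 nt on sparse transcripts. In replicate 2, 8.62% of successive pairs were within 20 nt and 39.9% were more than 200 nt apart, against 4.04% and 59.2%. The listed stretch from first to last site had a median of 2474 nt (592 to 6167), with 4.24 sites per 1000 nt (1.71 to 15.2). Rhob, a small GTPase, was the most tightly spaced, with a median of 33 nt, followed by Rtl8b (39 nt), Rtl8a (43.5 nt), Glyr1 (44 nt) and Fdx2 (45 nt). The widest were Sfrp1, a secreted Wnt antagonist (383 nt), Ddx17, an RNA helicase (371 nt), Adgra3 (362 nt), Sbk1 (350.0 nt) and Ganab (339 nt).

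On dense transcripts neighbouring sites were not more alike than distant ones. Between successive sites up to 50 nt apart the mean difference in motif-adjusted fraction exceeded that between sites more than 200 nt apart, by 0.0545 in replicate 1 and 0.0348 in replicate 2 on dense transcripts. This was 0.0447 ± 0.0139 (SD, n = 2; exact paired permutation, two-sided p = 0.5, the smallest possible). With members chosen again its mean was 0.0111 at a minimum of 10 reads and 0.0784 at 50 reads. On sparse transcripts the same quantity was -0.0589 and -0.0076. There the near classes were not all on one side, with 0.342 up to 20 nt and 0.237 from there to 50 nt in replicate 1 and 0.286 and 0.329 in replicate 2, against 0.33 and 0.322 beyond 200 nt. For dense transcripts in replicate 2 the mean difference was 0.329 up to 20 nt, 0.331 over 20 and up to 50 nt, 0.343 up to 100 nt, 0.303 up to 200 nt and 0.296 beyond. Neighbours can share reads, and how many they shared was not measured.

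**Figure D4:**
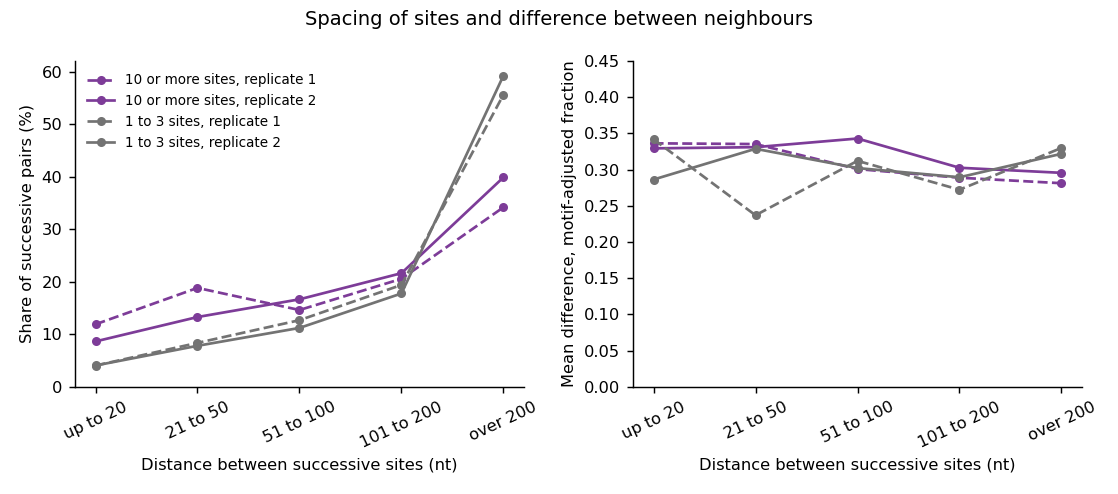
Left, share of successive pairs of sites by their distance in nt. Right, mean difference in motif-adjusted fraction between the 2 sites of a pair, for transcripts with 10 or more sites (purple) and 1 to 3 sites (grey), replicate 1 dashed and replicate 2 solid. Dense transcripts hold more close pairs, and their neighbours within 20 nt differ by 0.336 and 0.329 against 0.281 and 0.296 beyond 200 nt.

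Pairs of the same motif within 50 nt, with 20 or more reads at both sites in both libraries, numbered 39 in 27 dense genes. The 2 sites differed in the same direction in both libraries in 37 of them, by more than 0.3 in both in 12 and by less than 0.1 in both in 4. Matching pairs of Rtl8a and Rtl8b, whose reads cannot be told apart with certainty, are counted once for each gene. Pairs further apart and pairs on sparse transcripts were not counted in this way, so the counts are a description. Rhob at 605 and 638 (GGACA) read 0.235 and 0.941 in replicate 1 and 0.333 and 0.954 in replicate 2, from 21 and 49 reads. Ajuba at 2557 and 2603 (GGACC) read 0.286 and 1, and 0.375 and 0.928. Rtl8b at 765 and 813 (GGACA) read 0.0714 and 1, and 0.0317 and 0.929. The matching sites of its paralogue Rtl8a, at 716 and 764, read 0.0588 and 0.957, and 0.177 and 0.932.

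Sox1, a SoxB1 factor of neural progenitors, read 0.923 and 0.267 at its AGACT sites 2442 and 2455 in replicate 1, and 0.909 and 0.466 in replicate 2. Gnai3 at 2663 and 2673 (GGACA) read 0.324 and 0.725, and 0.30 and 0.747. Pgd, of the pentose phosphate pathway, at 845 and 881 (GGACA) read 0.147 and 0.643, and 0.0794 and 0.642. Noct, a circadian phosphatase, at 3521 and 3540 (AGACT) read 0.111 and 0.556, and 0.115 and 0.5. The pairs that were alike include Rab8a, with GGACT at 1763 and 1780 at 0.85 and 0.826, and 0.769 and 0.688, and Nr2f1, with GGACT at 2503 and 2520 at 0 and 0.0714, and 0.024 and 0.0938. The same 5 bases within 50 nt thus went with levels far apart in some genes and close in others.

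Relative to motif, the highest transcripts in replicate 2 were Ier2, an immediate early gene (mean motif-adjusted fraction 0.251 over 10 sites), Cand2 (0.247), Derpc (0.224), Chtf8 (0.169), Rnf145 (0.165), Sall2 (0.165), Sox1 (0.165) and Rab8a (0.163). At the sites read in both libraries the mean fraction of Ier2 was 0.537 in replicate 1 and 0.604 in replicate 2 over 9 sites. Over 9 sites each it was 0.519 and 0.505 for Rnf145, 0.608 and 0.594 for Sox1 and 0.578 and 0.557 for Rab8a. For Chtf8 it was 0.458 and 0.503 over 11 sites. The lowest were Tmem121 (-0.153), Fem1b (-0.142), Cand1 (-0.135), Raver2 (-0.127), Rhob (-0.122), Ankrd46 (-0.117), Cdh11 (-0.113) and the initiation factor Eif4g1 (-0.110). Rhob had a mean of 0.30 and 0.333 over all 10 sites, and Cand1 0.210 and 0.191 over 6. After motif, the transcript accounted for -0.503% of the variance in replicate 2, so as a set the transcripts differed there by no more than their sites. The ranks are therefore a description, and Derpc and Chtf8 share 11 of their sites. Cand1 and Cand2, which encode related inhibitors of cullin ligase assembly, were among the 8 lowest and the 8 highest in that library. Cand2 had no site with 20 reads in replicate 1.

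The largest SD within a transcript was that of Galnt1, a glycosyltransferase (0.397), followed by Ubfd1 (0.391), Dyrk3, a kinase (0.389), Thap12 (0.385) and Nacc1 (0.375). Thap12 held its GGACA sites between 0.75 and 0.967 and its AGACT sites between 0.0769 and 0.333. The smallest were Msh6 (0.158), the replication helicase subunit Mcm3 (0.165), Zfp553 (0.175), Wdr48 (0.189) and Prpf8 (0.192). Msh6 had no site over 0.7 in replicate 2 and a mean of 0.202 and 0.307 at the 10 sites read in both libraries. That gap was wider than in most: of 49 transcripts with at least 5 such sites, 40 had means within 0.05 and the largest difference was 0.106.

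Along the listed stretch the levels differed little. With the stretch from first to last site split into 5 equal parts, the mean motif-adjusted fraction in replicate 2 was 0.0249, 0.0309, 0.037, 0.0381 and 0.0357. Median coverage over the same parts was 29, 37, 37, 44.5 and 45 reads. It was higher at the last than at the first site on 149 transcripts and lower on 19, with a median ratio of 1.62. Reads of native RNA start at the poly(A) tail, the end at which coverage was higher on most of these transcripts.

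At the 495 dense sites with 20 or more reads in both libraries the root mean square difference in fraction was 0.109, and 35 sites differed by more than 0.2. Across these sites on 91 transcripts, which share libraries and motif levels and can share reads, Pearson's r was 0.934 and Spearman's rho 0.914, given as a description. At 1719 sparse sites the root mean square difference was 0.0957, with higher coverage, a median of 45 reads in replicate 1 against 28. At 20 to 49 reads in both libraries the values were 0.127 and 0.126, and at 50 or more 0.0702 and 0.0677. The values of dense and sparse sites were thus close within each of these ranges of coverage. At 50 or more reads the sparse sites were still deeper, with a median of 92 reads in replicate 1 against 77. The difference between sites of one transcript, an SD of about 0.297, was larger than the difference between libraries at 1 site.

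**Figure D5:**
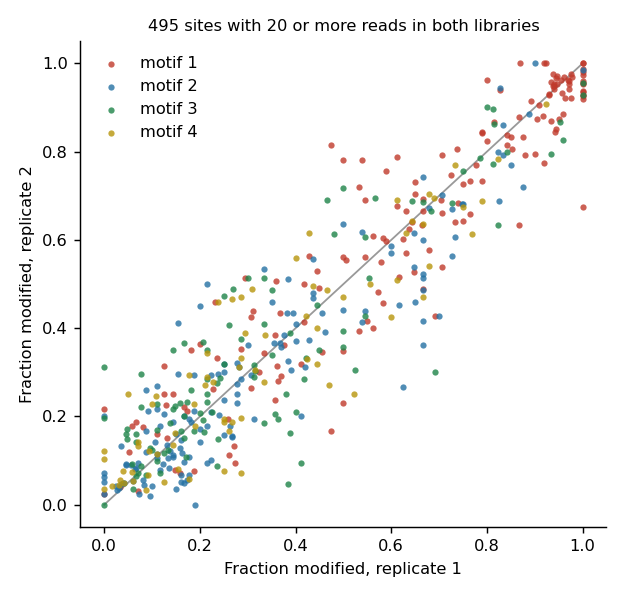
Fraction modified in replicate 1 (horizontal) and replicate 2 (vertical) at the 495 dense sites with 20 or more reads in both libraries, coloured by motif (1 GGACA, 2 GGACT, 3 GGACC, 4 AGACT), with the line of equality. Points follow the line with a root mean square difference of 0.109, and each motif other than motif 1 also has sites near the top.

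Within each of 4 classes of last-site position, dense transcripts came from genes of shorter median span, while over all transcripts the order was the other way. The genomic span of the gene had a median over all dense transcripts of 19553 bases against 15881.5 for sparse transcripts, and it was under 5000 bases for 14.6% against 17.3%. The last site, which the rule favours to lie far along, had a median position of 3089 against 1161.5. With the last site within 2000 nt of the transcript start the median span was 5722 bases against 11876, and it was 14725 against 28484 above that and up to 3000 nt. It was 28392.5 against 32331 up to 4000 nt and 31020 against 62960.5 beyond. Under 5000 bases were 44.8% against 22.5% of genes in the first of these classes and 15.7% against 2.99% in the next. On 27 of 171 (15.8%) the last site lay further along the spliced transcript than 50% of the genomic span of the gene, against 69 of 2190 sparse transcripts (3.15%). These shares were 27.6% and 3.19% where the last site was within 2000 nt of the transcript start. They were 19.6% and 1.87% above that and up to 3000 nt, 15.2% and 4.26% up to 4000 nt and 4.44% and 4.0% beyond. Examples are Peg12 (last site at position 2564, gene span 2640 bases), Gas1 (2800 and 2961), Sephs2 (2048 and 2177), Rbm15b (6117 and 6511), Fzd1 (3748 and 4197), Ier2 (1327 and 1524) and Sox1 (4047 and 4832). A site number above 9 on a short transcript and a last site near its end both depend on how far the reads reach, and their part in these shares was not tested.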

How the data were processed

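Native poly(A) RNA of 2 libraries, replicates 1 and 2 of 1 group, was sequenced on nanopores. The authors deposited, per library, a table of positions on transcripts with a coverage, which is a whole-number count of reads with 5 as the lowest value, and a fraction modified between 0 and 1. The denominator of the deposited fraction, the base caller, the aligner and the modification caller are not given in the sources used here. The submitters' processing notes name mm10. Gene starts were as deposited: of 170 members in a RefSeq list for GRCm38.p6, 6 started within 1000 bases of the listed start, so coordinates of the 2 sources were not combined.

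The members, gene lists and comparisons were chosen with earlier results of these data known. Sites were positions with 20 or more reads. Replicate 2 chose the transcripts (ties by summed coverage), and replicate 1 was read at the same positions. The motif-adjusted fraction is the fraction minus the median of its motif over all such sites of that library. Values are given per library, and differences were tested with an exact paired permutation, two-sided, which with 2 libraries cannot give a p under 0.5. P-values measure only the spread between these libraries, which may be technical. Since the number of reads behind a fraction is unknown, coverage is given in place of a confidence interval. Genes named are the 20 with the most sites, the 8 highest and 8 lowest by motif-adjusted mean, the 5 largest and 5 smallest by SD and by spacing, and list members, except 1 item that is not reported here. Pairs, sets of 1 motif, families and shared runs were added after the values were seen. The scripts (Python 3.11.15, pandas 2.3.3, numpy 2.4.6, scipy 1.17.1) were tested on simulated data. No gene of the set was listed in the tables named minus, which were not used. Transcript sequence around the sites and exon structure were not analysed here.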

Additional observations from a re-analysis of the deposited data

How the results depend on the processing

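The number of dense transcripts followed its criteria, 66 with 12 or more sites, 433 at a minimum of 10 reads and 24 at 50 reads. The dense minus sparse difference in motif-adjusted fraction had no stable sign. It was -0.00032 with the mean of each motif as the reference and -0.000317 at sites of 20 to 49 reads, and leaving out each library gave -0.00282 to 0.0133. The share of variance by transcript after motif was -2.33% at 50 reads and ran from -0.503% to 5.17% with each library left out. The dense minus sparse difference in SD within a transcript was 0.00556 at 10 reads. The cause of these changes was not tested. Leaving out Exosc6, Derpc and Rtl8a, an alternative chosen after seeing the data, reversed none of the results computed again. With 20 reads a fraction has coarse steps, and the design cannot pass a threshold of p, so the alternatives show only which way a value pointed.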
